A study of Mus musculus with 56 samples.

Results

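The interleukin genes, taken here as every gene of the deposited expression table whose symbol starts with IL followed by a digit, numbered 83 of the 24034 genes used. All 83 matched a current mouse symbol. They cover secreted cytokines, receptor chains and decoys, and the rule also took in an enzyme (Il4i1), a binding protein (Il18bp) and an antisense RNA (Il1bos). The rule reads names only.

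Interleukins are cytokines that cells secrete to steer immune and tissue responses, and most act through receptors built of a ligand-specific chain and a chain shared by a family. The IL-6 family shares gp130, encoded by Il6st, which drives JAK and STAT3 signalling, and in the liver hepatocytes carry the IL-6 receptor and answer with acute phase proteins. The IL-1 and IL-17 families signal through adaptor proteins to NF-kB, and the common gamma chain, encoded by Il2rg, serves lymphocyte cytokines such as IL-2, IL-7 and IL-15.

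Bulk RNA-seq was available from 26 libraries of C57BL/6 mice. These were 6 healthy livers, 6 luc and 6 lucOS tumours whose titles give no sex (called here tumours of unstated sex), and 4 tumours of each construct with the word males in their titles. All 20 tumours are labelled MYC and nicd, the latter being the active intracellular domain of NOTCH1, and the labels state no further treatment and no ages. The plasmids were given by hydrodynamic tail vein injection, which reaches mainly hepatocytes, and the healthy livers carry the same method label with no construct in their titles. luc is luciferase, and lucOS is luciferase fused to model antigens for T cells. The labels do not say whether each library came from a separate animal, so p-values measure the spread between these libraries, which may in part be technical.

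Notch1 averaged 5.93 ± 2.66 TPM (SD, n = 6) in healthy liver and lay between 304.6 and 1152 TPM in the 20 tumours, where transgene and endogenous reads cannot be told apart. Xist, the RNA of the inactive X chromosome, lay at 50.8 TPM or more in every library without a sex in its title and at 0.99 TPM or less in the males, while the Y-linked Ddx3y lay at 0.164 TPM or less and at 12.7 TPM or more in the same libraries. By these genes, all libraries without a sex in their titles, healthy livers included, had a female pattern. The male tumours were therefore compared only with healthy livers of female pattern. Codes in the titles start with AL15 or PM5 for 3 healthy livers each, with AL51 or AL54 for the tumours of unstated sex and with AL75 for all males. What the codes stand for is not stated, so neither tumour and code nor male and code can be told apart. Hepatocyte markers (10 genes, Alb among them) summed to 112053 TPM or more in each healthy liver (at most 167151) and to at most 14816 TPM in any tumour (at least 263.0). In bulk libraries fewer cells of a type and less RNA per cell cannot be told apart.

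Few interleukin ligands but many receptor chains were abundant. TPM is a transcript's share of the library corrected for gene length, so levels can be set side by side between genes. Of the 83 genes, 5 (Il3, Il22, Il1f5, Il1f8 and Il1f10) were listed at 0 in all 26 libraries and another 31 never reached 1 TPM. A further 6 reached 1 TPM in 1 to 3 libraries, and 41 reached it in at least 4 and were tested. Only 15 had a mean of 10 TPM or more in any group. In healthy liver the highest means belonged to Il6ra with 66.6 ± 35.5 TPM, Il6st with 41.6 ± 19.5, Il1rap with 36.7 ± 6.64, Il1r1 with 35.6 ± 18.8 and Il15ra with 31.2 ± 4.23 (SD, n = 6), neighbours whose ranges overlapped. In luc tumours the order was Il13ra1 with 63.2 ± 16.5 TPM, Il6st with 36.5 ± 3.58, Il1r1 with 32.7 ± 10.8 and Il17rc with 28.5 ± 3.30 (SD, n = 6). All of these encode receptor chains. The summed level of the 83 genes had medians of 386.5 TPM in healthy liver, 332.5 in luc, 285.1 in lucOS, 359.0 in male luc and 405.2 in male lucOS tumours.

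**Figure D1:**
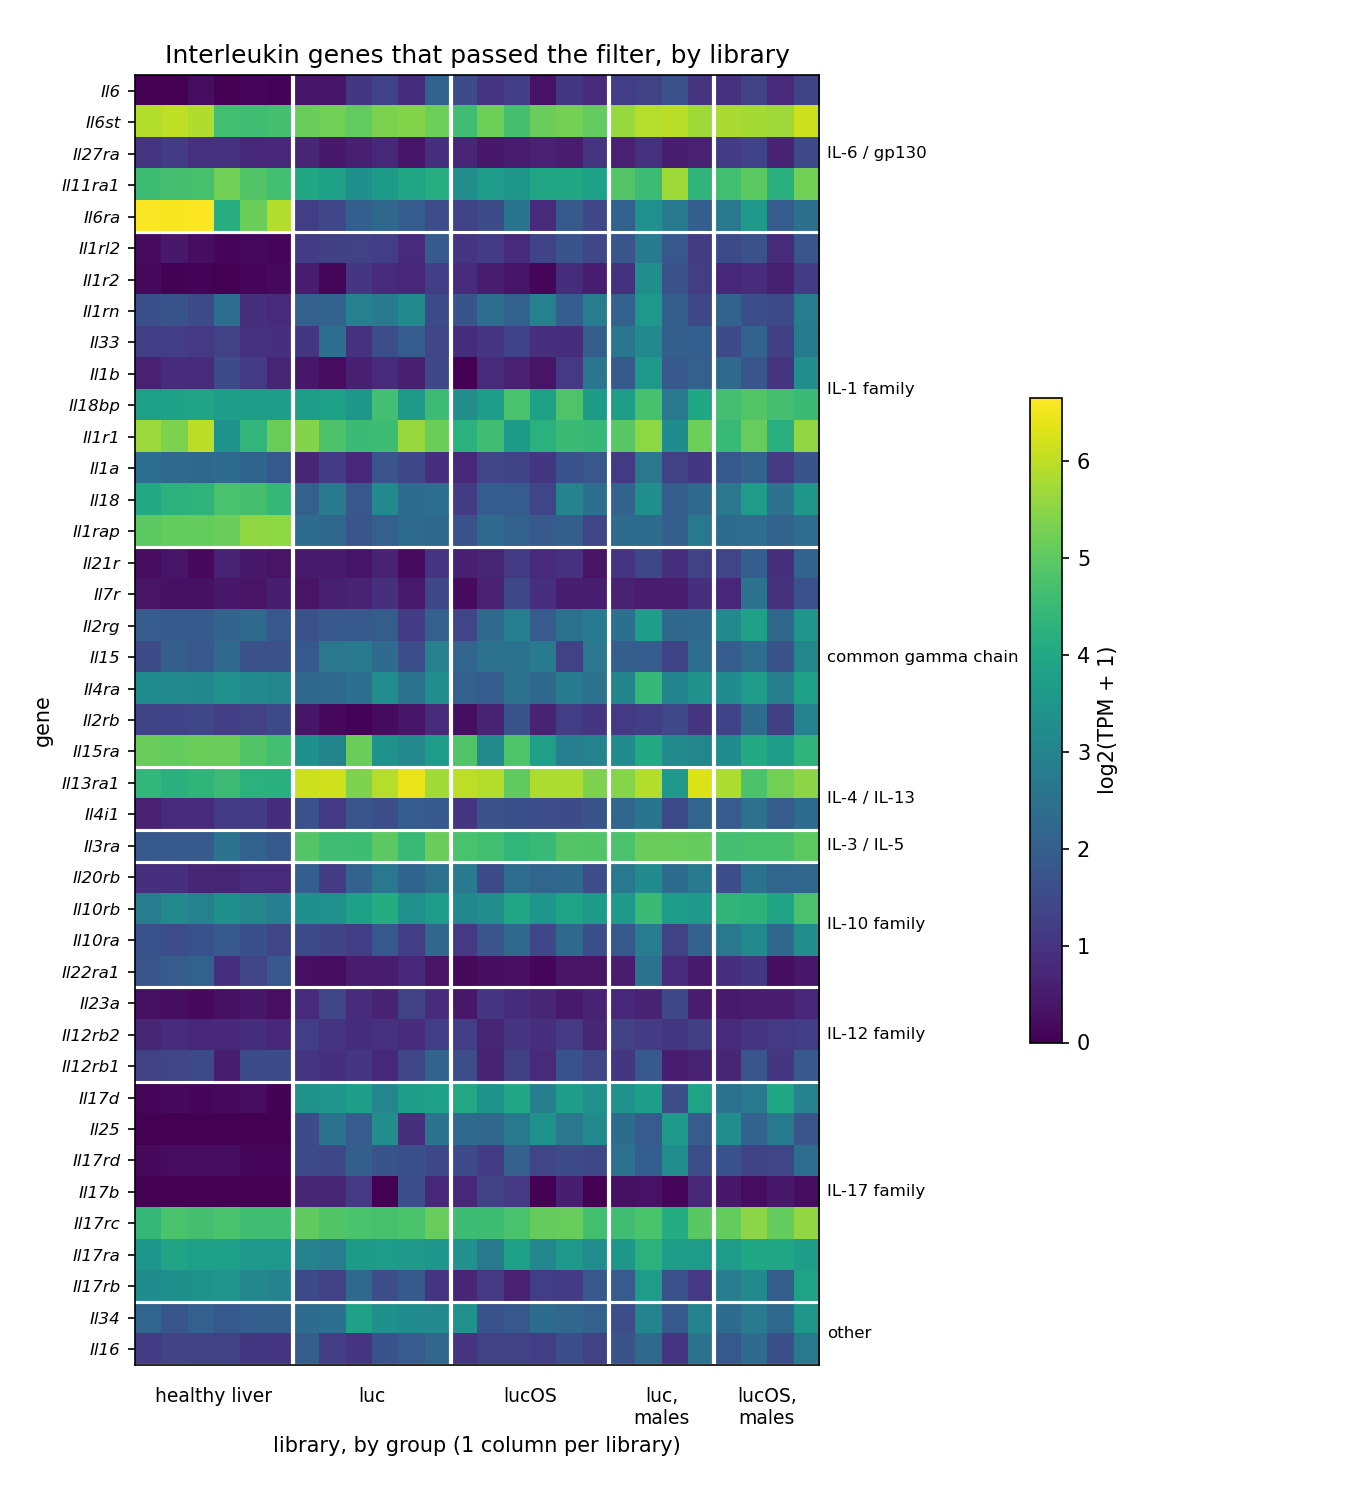
Levels of the 41 tested interleukin genes, as log2(TPM + 1), with 1 column per library and 1 row per gene, grouped by receptor family. Il6ra and Il1rap are bright in the 6 healthy livers and dark in the tumours, Il17d and Il3ra the other way round.

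Tumours were first set against healthy liver to ask which interleukin genes differ in the transformed organ. A gene was called at an adjusted p under 0.05 (limma on log2(TPM + 1), Benjamini-Hochberg over all 15767 genes tested). As deposited, 22 of the 41 tested genes were called higher and 8 lower in tumours, where 71.8% of all genes were called higher and 16.9% lower (88.7% in either direction). Both shares moved with the scaling, since the median gene lay 1.03 log2 units higher in tumours as deposited, 0.08 after median ratio scaling and 0.14 after quantile normalization. Median ratio scaling gave 9 higher and 22 lower of 41, against 43.3% and 40.3% of all genes. Quantile normalization gave 8 higher and 28 lower, against 44.6% and 37.2% of all genes. The median difference of the 41 genes was 0.48 log2 units as deposited, or 0.40 without Il17b and Il25, which were listed at 0 in all healthy livers. Both medians still hold genes such as Il17d, Il6, Il20rb and Il23a, which lay below 1 TPM in every healthy liver and passed the filter through tumours. Il22ra1, which passed only with the healthy livers, is in both as well.

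Across the 3 scalings 16 genes kept their direction and their call, and the results below lead with them. The 8 higher in tumours were Il17d, Il3ra, Il25, Il17rd, Il1rl2, Il6, Il1r2 and Il17b, and the 8 lower were Il6ra, Il1rap, Il18, Il15ra, Il17rb, Il22ra1, Il1a and Il11ra1. All of the higher genes but Il3ra lay below 1 TPM in every healthy liver and passed the filter through tumours alone. Of the lower genes, Il22ra1 would not have passed on the tumours alone. For these genes the filter itself favoured the direction found. Against the livers of 1 code alone these genes kept their direction, and all but Il17b (either code) and Il11ra1 (AL15, adjusted p = 0.112) kept their call. Another 9 genes were called higher as deposited and lower in a rescaling, and no direction is given for these (Il17rc, Il12rb2, Il2rg, Il7r, Il16, Il34, Il33, Il10rb and Il4i1). All healthy livers lay below all tumours for 8 tested genes (54.8% of all genes did so) and above all tumours for Il6ra, Il1rap and Il18 (9.83% of all genes).

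**Figure D2:**
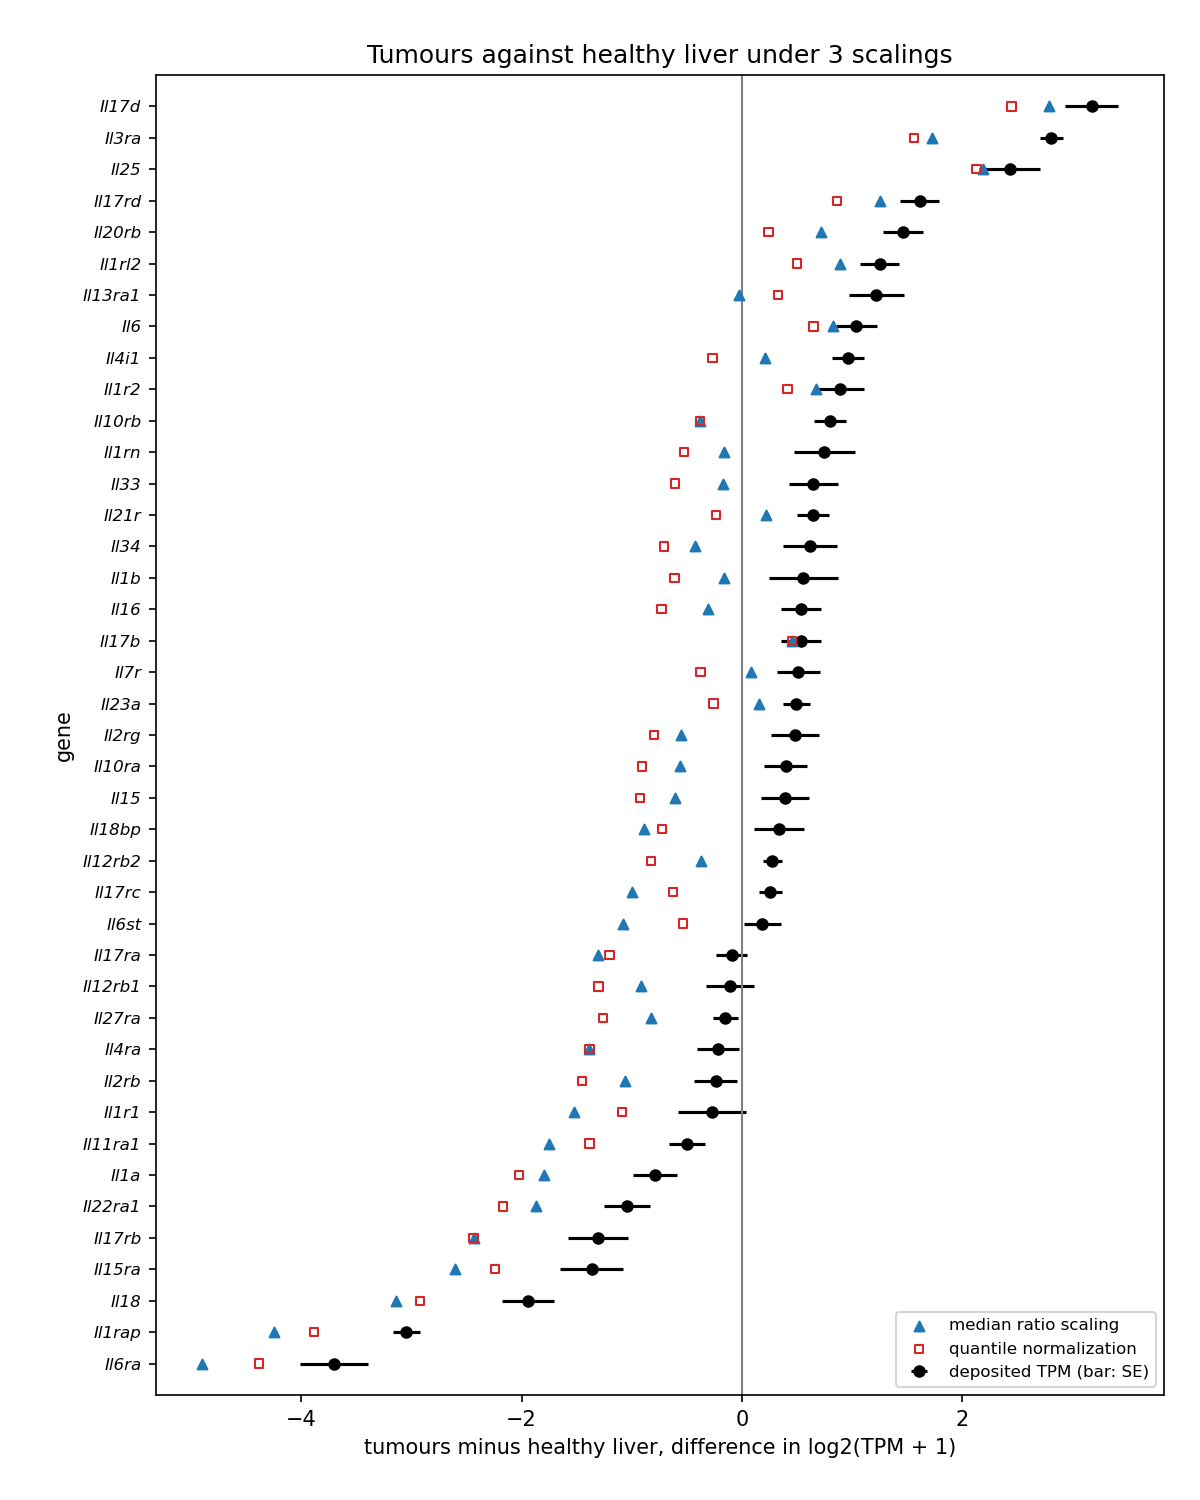
Difference between tumours and healthy liver in log2(TPM + 1) for each of the 41 tested genes. Black points with SE bars are deposited TPM, triangles median ratio scaling and squares quantile normalization. Il17d lies furthest right at 3.17 and Il6ra furthest left at -3.70, and 18 of the genes between them, all to the right of 0 as deposited, lie to its left after at least 1 rescaling.

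Within the IL-6 family, the receptor chain Il6ra was low and the cytokine Il6 detectable in tumours. Il6ra, which binds IL-6 and hands it to gp130, measured 96.3, 94.4 and 99.5 TPM in the AL15 healthy livers and 16.8, 34.7 and 57.8 TPM in the PM5 livers. Among the tumours it lay between 1.35 and 3.75 TPM in luc (median 2.41), 0.769 and 4.99 in lucOS (median 1.78), 2.94 and 9.28 in male luc and 2.84 and 11.2 in male lucOS. Even the lowest healthy liver thus exceeded the highest tumour, although the healthy livers of the 2 codes did not overlap each other. The difference was -3.70 ± 0.31 log2 units (SE; adjusted p = 4.6e-11), with -4.48 against the AL15 livers alone and -2.93 against the PM5 livers alone.

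Il6, a ligand made by many stressed and immune cells, was listed at 0 in 3 healthy livers and at 0.0369, 0.0728 and 0.159 TPM in the others. Tumours ranged from 0.292 to 3.21 TPM in luc (median 0.97), from 0.245 to 1.88 in lucOS (median 1.06), from 0.989 to 2.13 in male luc and from 0.747 to 1.57 in male lucOS. No tumour fell to the level of a healthy liver. The difference was 1.04 ± 0.18 log2 units (adjusted p = 1.3e-05), though the level stayed near 1 TPM.

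The bases before the 2 genes are shown because the ligand and its receptor moved in opposite directions. Each window holds the 250 bases before the annotated start, 5′ to 3′ on the gene's strand, from RefSeq on GRCm38.p6, and lies at chr3:89913197-89913446 on the minus strand for Il6ra and chr5:30012864-30013113 on the plus strand for Il6. Capitals mark matches to TGGGAA, the core bound by RBPJ, the DNA-binding partner of the NOTCH1 intracellular domain, and to the NF-kB site GGGA, any base, TTTCC.
Il6ra promoter: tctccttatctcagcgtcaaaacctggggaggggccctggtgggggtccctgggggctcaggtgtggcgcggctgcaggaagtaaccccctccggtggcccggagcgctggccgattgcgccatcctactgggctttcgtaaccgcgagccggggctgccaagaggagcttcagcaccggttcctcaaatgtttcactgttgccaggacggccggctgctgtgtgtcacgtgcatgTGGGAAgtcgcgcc
Il6 promoter: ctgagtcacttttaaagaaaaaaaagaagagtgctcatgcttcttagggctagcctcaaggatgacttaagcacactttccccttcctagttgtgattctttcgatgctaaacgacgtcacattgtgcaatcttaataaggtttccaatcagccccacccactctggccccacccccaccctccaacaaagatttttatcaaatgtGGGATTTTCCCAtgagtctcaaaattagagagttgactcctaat
In Il6ra the match to TGGGAA lies at positions -14 to -9 from the start, and in Il6 an NF-kB match at -44 to -35 overlaps a TGGGAA match on the other strand at -38 to -33. On either strand TGGGAA occurred in 21.6% of the 32851 windows of all genes and in 30 of 81 windows of interleukin genes. Among genes called as deposited it occurred for 7 of 17 higher and 4 of 8 lower. Of these 7 higher genes (Il16, Il17rc, Il1rn, Il2rg, Il33, Il4i1 and Il6) only Il6 kept its call under all 3 scalings. The 4 lower ones (Il6ra, Il1rap, Il1a and Il11ra1) all kept theirs. The NF-kB letters occurred in 0.356% of all windows and in those of Il16 and Il6 among interleukin genes, and the STAT letters TTCCNGGAA in 0.913% of all windows and in that of Il31ra. A match describes the letters of a window and is no evidence of binding.

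The shared chain and the other receptors of the family behaved less uniformly. Il6st, encoding gp130, measured 56.8 to 63.2 TPM in the AL15 livers and 23.6 to 24.7 in the PM5 livers, a gap wider than most tumour groups span. Its difference of 0.19 ± 0.17 log2 units was not called (adjusted p = 0.305), and it was -0.45 against the AL15 livers (adjusted p = 0.0019) and 0.82 against the PM5 livers (adjusted p = 2.0e-06). Il11ra1, the IL-11 receptor chain, lay between 22.8 and 36.5 TPM in healthy liver (median 25) and between 8.82 and 16.6 TPM in the 12 tumours of unstated sex. The male tumours reached 17.7 to 51.3 TPM and overlapped healthy liver. Its difference was -0.50 ± 0.16 over all tumours (adjusted p = 0.0056), -1.03 against the tumours of unstated sex and 0.037 against the males (adjusted p = 0.871). Il11ra1 shares bases with Ccl27a and has a near-identical copy in Il11ra2, so its reads may be split or shared. The ligands Il11 and Il27 reached 1 TPM in 0 and 1 libraries and were not tested.

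Genes that act beside interleukins or downstream of them were counted from lists chosen for this purpose. The list of partners reached beyond the IL-6 family and included Csf2rb, Sigirr and Csf1r. Of 17 tested partners without an interleukin name, 10 were called higher and 2 lower as deposited (71.8% and 16.9% of all genes), 7 and 7 after median ratio scaling and 7 and 8 after quantile normalization. Osmr, the oncostatin M receptor that also pairs with gp130, rose from 1.40 ± 0.37 TPM in healthy liver to 12.1 ± 3.15 in luc tumours (2.49 log2 units over all tumours, adjusted p = 2.7e-11). Clcf1, a ligand of the IL-6 family, rose from 0.704 ± 0.407 to 6.89 ± 1.14 TPM in the same groups (2.64 log2 units, adjusted p = 3.9e-09). Lifr, the LIF receptor, fell from 119.7 ± 42.3 to 26.1 ± 5.20 TPM (-2.0 log2 units, adjusted p = 1.9e-09). These 3 genes kept their direction and call under all 3 scalings.

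Acute phase genes that hepatocytes make in answer to IL-6 were low in tumours, with 0 of 20 called higher and 18 lower, and 19 lower under each rescaling. Hamp, the iron hormone hepcidin, differed by -7.56 log2 units, Saa4 by -7.01 and Crp by -5.02 (adjusted p = 3.5e-09, 1.3e-13 and 1.8e-11). Hepatocyte markers moved the same way, with 10 of 10 called lower, and their part in these values was not tested. Of 23 JAK, STAT and SOCS genes, 15 were called higher and 3 lower as deposited, shares close to those of all genes, 5 and 12 after median ratio scaling and 6 and 10 after quantile normalization. Socs5, a suppressor of cytokine signalling, rose from 3.54 ± 0.61 TPM to 45.9 ± 7.06 in luc tumours (3.12 log2 units over all tumours, adjusted p = 1.2e-13). Cish, another member of that family, fell by 1.87 log2 units (adjusted p = 7.9e-06). Both held under the 3 scalings.

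In the IL-1 family the accessory chain and IL-18 fell, and 2 receptor genes of the cluster on chromosome 1 rose. Il1rap encodes the accessory protein that the receptors for IL-1, IL-33 and IL-36 share. It measured 30.2 to 45.5 TPM in healthy liver (median 33.5) and at most 5.43 TPM in any tumour, with medians of 3.68 in luc, 2.85 in lucOS, 4.11 in male luc and 4.15 in male lucOS. The groups were far apart and the tumours tightly placed. The difference was -3.04 ± 0.12 log2 units (adjusted p = 1.0e-17). Its gene overlaps Gm20319, which averaged 131.4 TPM in healthy liver, with tumour group means of 6.48 to 15.4 TPM, and how reads of the overlap were assigned is not stated.

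Il18, a cytokine activated by inflammasomes that stimulates NK and T cells, lay between 15.7 and 25.7 TPM in healthy liver (median 19.8). Tumours held 2.47 to 8.04 TPM in luc (median 4.18), 1.25 to 6.85 in lucOS (median 2.89), 2.88 to 9.01 in male luc and 4.69 to 11.8 in male lucOS. The highest tumour stayed below the lowest healthy liver. The difference was -1.94 ± 0.24 log2 units (adjusted p = 4.6e-08). Il18 overlaps Bco2, a carotenoid-cleaving enzyme that fell from 17.9 TPM in healthy liver to 0.401 to 1.52 TPM in the tumour group means. Il18bp, the secreted inhibitor of IL-18, had a median of 12.5 TPM in healthy liver and 12.5 in luc tumours, and 0.34 log2 units as deposited became -0.88 and -0.73 after the rescalings. The window before Il18, at chr9:50554450-50554699 on the plus strand of GRCm38.p6 (RefSeq), is given beside that of Il6 for contrast and held none of the 3 motifs.
Il18 promoter: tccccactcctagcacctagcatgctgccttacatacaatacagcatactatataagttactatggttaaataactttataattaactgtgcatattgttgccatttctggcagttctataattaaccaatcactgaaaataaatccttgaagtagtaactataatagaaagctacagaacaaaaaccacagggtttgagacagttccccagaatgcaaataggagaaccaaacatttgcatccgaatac
The Il18 window had 35.6% G and C and that of Il6ra 65.2%.

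Il1a, the cell-associated IL-1, averaged 3.68 ± 0.63 TPM in healthy liver and 1.25 ± 0.685 in luc tumours, with a difference of -0.79 ± 0.20 (adjusted p = 7.9e-04). Male luc replicate 2 held 5.27 TPM, above every healthy liver, so the ranges overlapped. Il1b, the secreted IL-1, was not called (0.56 log2 units, adjusted p = 0.0995), and it gave -0.16 and -0.61 after the rescalings. Il1r1, the signalling receptor, ranged from 9.76 to 61.1 TPM in healthy liver and from 8.45 to 48.7 in tumours and was not called (-0.27, adjusted p = 0.414).

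The receptor genes Il1r2, Il1r1, Il1rl2, Il1rl1, Il18r1 and Il18rap lie side by side on chromosome 1 from base 40084692 to 40551707 (GRCm38.p6). Il1rl2, the IL-36 receptor, lay between 0.0668 and 0.374 TPM in healthy liver and between 0.731 and 5.51 TPM in tumours, without overlap. Its difference was 1.25 ± 0.17 log2 units (adjusted p = 3.5e-07). Il1r2, the decoy receptor of IL-1, lay at or below 0.119 TPM in healthy liver and between 0.066 and 8.93 TPM in tumours (0.89 ± 0.22 log2 units, adjusted p = 5.4e-04). Il1rl1, Il18r1 and Il18rap were not tested, since they reached 1 TPM in at most 2 libraries. Neighbouring genes of the cluster therefore differed in level, with Il1r1 means of 18.9 to 35.6 TPM and Il1rl1 means of at most 0.201 TPM in the 5 groups.

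Il1rn and Il33 were called higher as deposited only. Il1rn, the IL-1 receptor antagonist, gave 0.75 log2 units as deposited and -0.17 and -0.52 after the rescalings, and Il33, an alarmin, 0.65, -0.17 and -0.60. Of 21 genes that carry IL-1 and IL-17 signals, 16 were called higher and 0 lower as deposited (71.8% and 16.9% of all genes), 6 and 11 after median ratio scaling and 7 and 11 after quantile normalization. Tab1, an activator of the kinase TAK1, rose from 2.47 ± 0.71 TPM in healthy liver to 25.6 ± 3.34 in luc tumours (3.05 log2 units over all tumours, adjusted p = 1.0e-19). Pycard, the inflammasome adaptor ASC, rose from 0.674 ± 0.094 to 5.35 ± 1.62 TPM (1.88 log2 units, adjusted p = 1.1e-08). Sigirr, an inhibitory receptor of the same family, fell from 22.6 ± 1.84 to 2.05 ± 0.315 TPM (-2.56 log2 units, adjusted p = 1.2e-13).

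The IL-17 family held the ligand with the largest rise. Il17d, a ligand found in non-lymphoid tissues, lay between 0.0328 and 0.162 TPM in healthy liver (median 0.0956). In tumours it lay between 7.25 and 12.9 TPM in luc (median 11.1) and between 6.24 and 15.1 in lucOS (median 11). The male luc tumours measured 9.55, 12.1, 1.97 and 13.2 TPM and the male lucOS tumours 4.55, 5.32, 14.7 and 6.66 TPM. Every tumour exceeded every healthy liver, with male luc replicate 3 the lowest. The difference was 3.17 ± 0.24 log2 units (adjusted p = 6.2e-12). Il17d stands at chr14:57524829-57543166 with no overlapping gene, and the window before it, chr14:57524579-57524828 on the plus strand of GRCm38.p6 (RefSeq), is shown as that of the ligand with the largest rise.
Il17d promoter: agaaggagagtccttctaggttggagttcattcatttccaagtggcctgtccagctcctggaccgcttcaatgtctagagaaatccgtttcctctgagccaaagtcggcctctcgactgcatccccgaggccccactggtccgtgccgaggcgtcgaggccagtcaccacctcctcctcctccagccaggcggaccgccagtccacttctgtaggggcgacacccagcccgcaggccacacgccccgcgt
This Il17d window held no match to any of the 3 motifs and 62.4% G and C.

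Il25, also called IL-17E and known from tuft cells, was listed at 0 in all 6 healthy livers. It measured 1.90, 4.78, 2.76, 8.81, 0.854 and 4.76 TPM in the luc tumours and 3.84, 3.58, 5.42, 9.59, 5.27 and 8.15 TPM in the lucOS tumours. Male luc tumours held 4.08, 2.73, 10.9 and 2.75 TPM and male lucOS tumours 8.63, 3.25, 5.40 and 2.37 TPM. It was present in all 20 tumours (adjusted p = 1.2e-08), and no fold is given against a group at 0. Il17b was also listed at 0 in all healthy livers and in 3 tumours, and reached 2.06 TPM at most (adjusted p = 0.0077). With only 3 healthy livers of either code in the fit, Il17b was not called (adjusted p = 0.058 with AL15 and 0.059 with PM5).

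Among the receptors of this family, directions differed. Il17rd, a receptor-like chain also known as SEF that restrains FGF signalling, lay at or below 0.195 TPM in healthy liver and at 1.21 TPM or above in all tumours (1.61 ± 0.17 log2 units, adjusted p = 4.4e-09). Il17rb, the receptor for IL-25 and IL-17B, went the other way. It lay between 6.76 and 10.0 TPM in healthy liver (median 8.68), 0.993 and 3.88 in luc (median 1.91) and 0.540 and 2.56 in lucOS (median 1.18). Male tumours overlapped healthy liver, with 2.77, 11.7, 2.21 and 1.14 TPM in luc and 6.02, 8.13, 2.88 and 13.3 TPM in lucOS. The difference was -1.31 ± 0.27 over all tumours (adjusted p = 9.3e-05) and -0.72 against the males alone, where it was not called (adjusted p = 0.070). The shared chains Il17ra and Il17rc had healthy medians of 11.6 and 24.1 TPM. Il17ra was not called as deposited (-0.09, adjusted p = 0.522), and Il17rc gave 0.26 as deposited and -1.0 and -0.63 after the rescalings. Il17a and Il17f, the T cell ligands of the family, never reached 1 TPM.

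**Figure D3:**
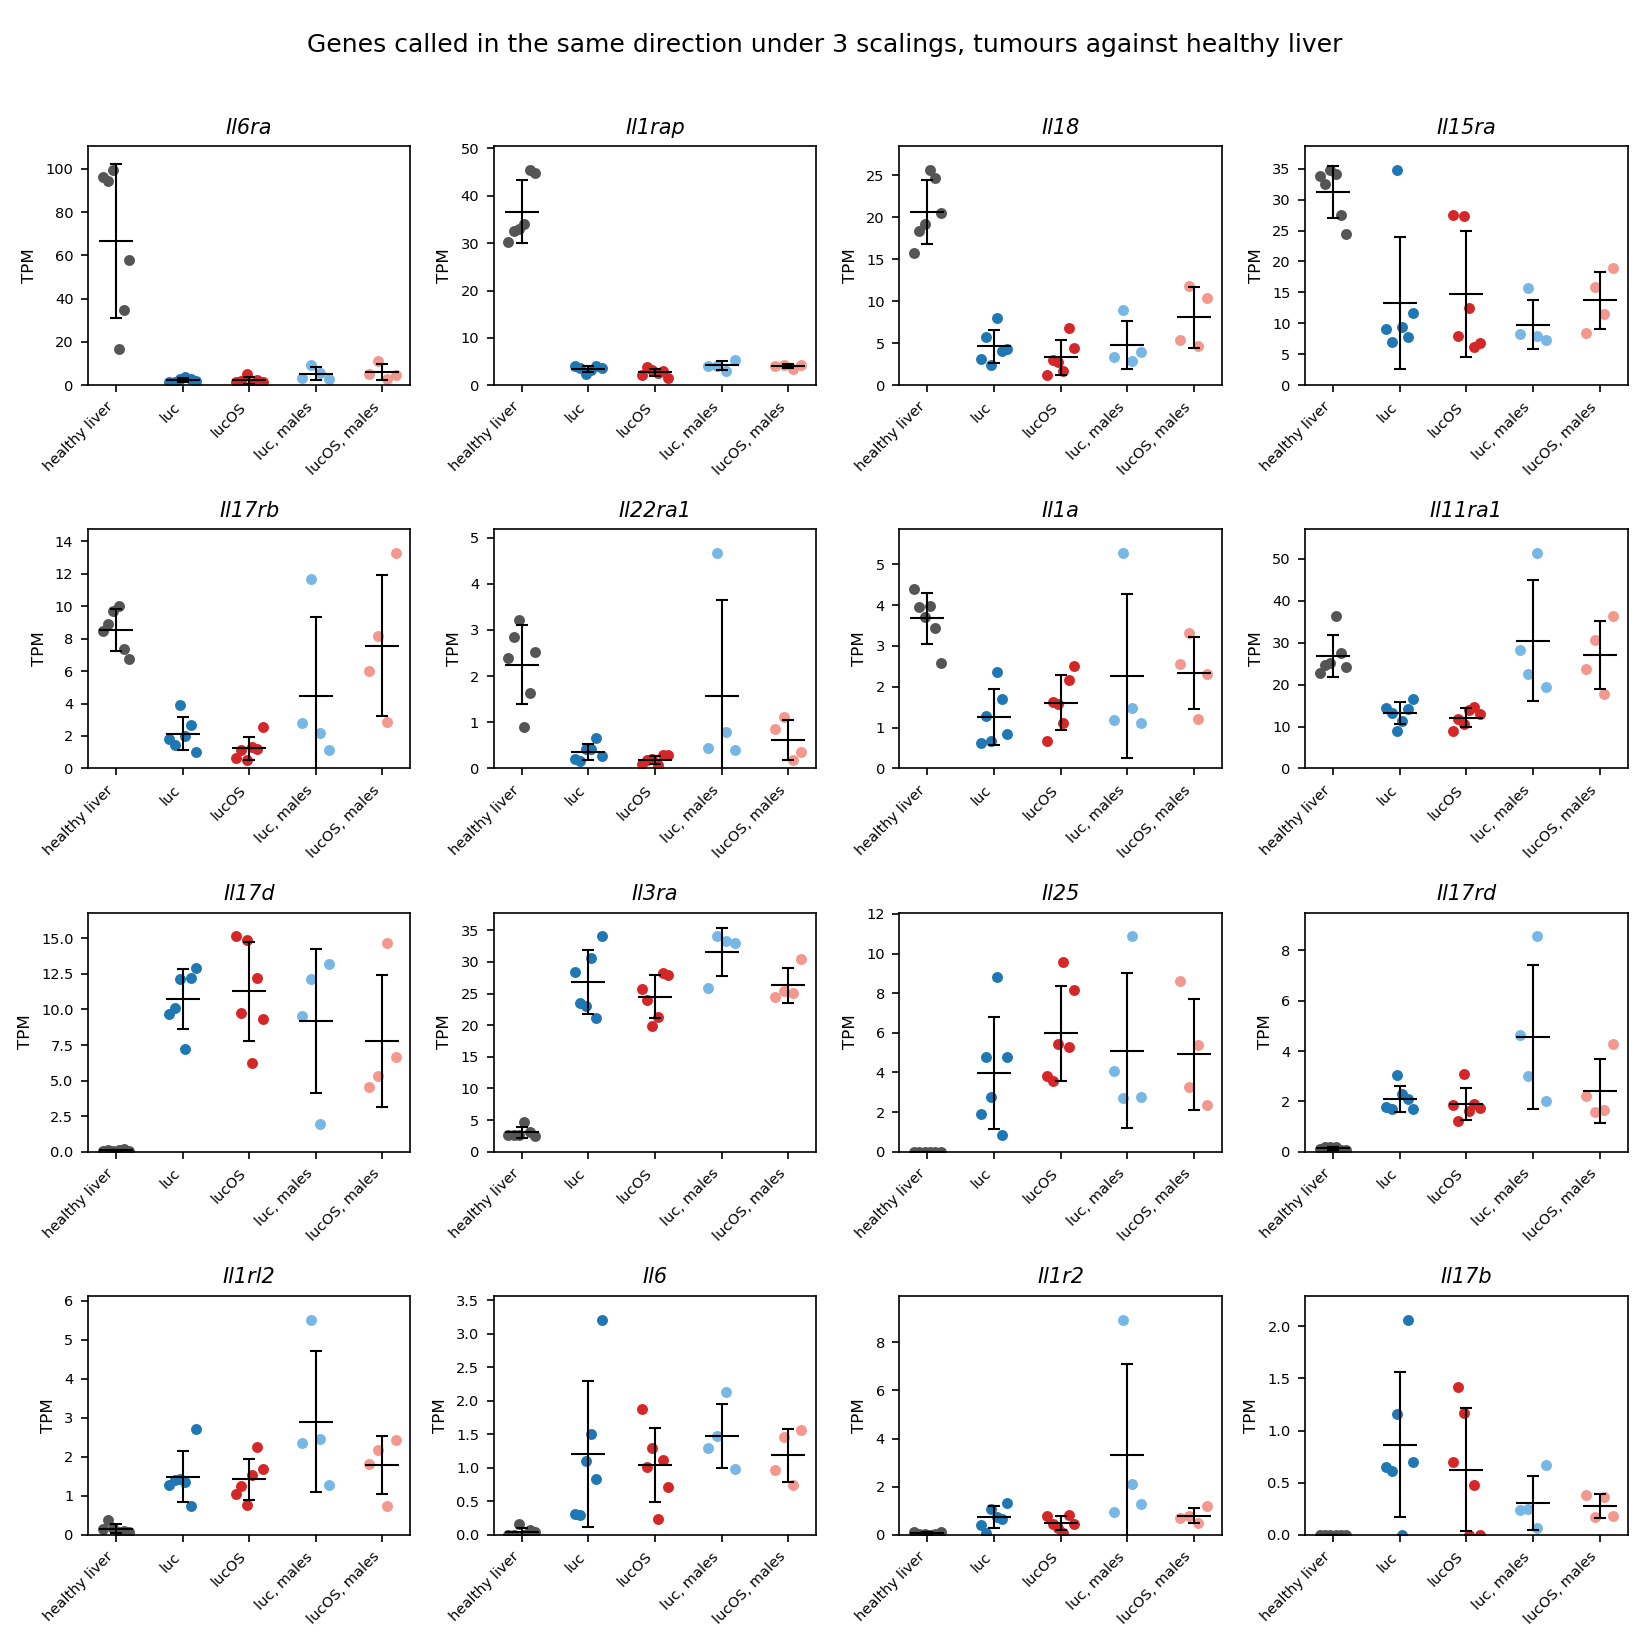
TPM of the 16 genes called in the same direction under 3 scalings, 1 point per library, with group mean and SD as bars, some cut off at 0. The lower genes fill the first 2 rows and the higher genes the rows under them. Il6ra, Il1rap and Il18 separate healthy liver from all 20 tumours.

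Of the receptors for IL-3 and for common gamma chain cytokines, Il3ra and Il15ra held across scalings. Il3ra, the IL-3 receptor chain, lay between 2.56 and 4.76 TPM in healthy liver (median 2.62). In tumours it lay between 21.2 and 34 TPM in luc (median 25.9), 19.9 and 28.2 in lucOS (median 24.9), 25.9 and 34 in male luc and 24.5 and 30.5 in male lucOS. The 4 tumour groups overlapped and were all far above healthy liver. The difference was 2.81 ± 0.11 log2 units (adjusted p = 3.75e-18), or 7.02-fold on the TPM + 1 scale. Its ligand Il3 was listed at 0 in all 26 libraries. Csf2rb, the chain it pairs with, is among the partner genes counted above.

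Il15ra, which presents IL-15 to neighbouring cells, lay between 24.4 and 34.8 TPM in healthy liver (median 33.2). Most tumours lay between 6.15 and 19.0 TPM, but luc replicate 3 held 34.8 and lucOS replicates 1 and 3 held 27.6 and 27.4 TPM. The groups thus overlapped through 3 tumours, and the difference was -1.36 ± 0.29 log2 units (adjusted p = 1.1e-04). The ligand Il15 had a healthy median of 2.30 TPM and a luc median of 4.61 TPM and was not called as deposited (0.39, adjusted p = 0.092), with -0.60 and -0.93 after the rescalings. Il2rg, the common gamma chain, gave 0.48 as deposited and -0.55 and -0.80 after the rescalings. Il7r gave 0.51, 0.08 and -0.38 and Il4ra -0.22, -1.38 and -1.38 in the same order, Il4ra being called only after rescaling. Il2, Il4, Il7 and Il21 never reached 1 TPM.

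In the IL-4, IL-10 and IL-12 families 1 gene held across scalings. Il22ra1, the IL-22 receptor of epithelial cells, lay between 0.894 and 3.22 TPM in healthy liver (median 2.46) and between 0.0761 and 0.668 TPM in the tumours of unstated sex. Of the males, luc replicate 2 reached 4.66 TPM and the other 7 lay between 0.182 and 1.11 TPM. The difference was -1.05 ± 0.21 log2 units (adjusted p = 5.5e-05). Il20rb, a receptor chain for IL-19, IL-20 and IL-24, rose as deposited by 1.46 and after median ratio scaling by 0.72, and with 0.24 it was not called after quantile normalization (adjusted p = 0.174). Il13ra1, the IL-13 receptor, gave 1.22 as deposited and -0.030 and 0.33 after the rescalings, with a healthy median of 18.7 TPM and a luc median of 64.4 TPM. Il10rb gave 0.80, -0.38 and -0.38. Il10ra was not called as deposited (0.40, adjusted p = 0.061) and was called lower after both rescalings (-0.56 and -0.90), and Il10 itself stayed at or below 0.404 TPM in all libraries. Il34 and Il16, cytokines of neither family, gave 0.62, -0.42 and -0.70 and 0.54, -0.31 and -0.73.

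The lucOS and luc constructs were compared to ask whether the antigen changed these genes. At unstated sex, 0 of 40 tested interleukin genes were called, as were 0.0% of all 15453 genes, with 2 at an unadjusted p under 0.05. The 5 with the smallest p were Il34, Il1r1, Il2rb, Il6st and Il1rap, none passing the test (adjusted p = 0.997 for each). Il34, a ligand of the CSF1 receptor, had medians of 8.07 TPM in luc and 3.31 in lucOS (-0.81 ± 0.34 log2 units, 95% interval -1.48 to -0.14), and the ranges of 3.99 to 13.1 and 2.18 to 9.30 overlapped. Il1r1 had medians of 30.5 and 19.5 TPM (-0.73 ± 0.33). Il2rb, the IL-2 and IL-15 receptor chain of NK and T cells, had medians of 0.215 and 0.826 TPM (0.58 ± 0.28), Il6st of 36.1 and 33.0 TPM (-0.23 ± 0.12) and Il1rap of 3.68 and 2.85 TPM (-0.27 ± 0.16). No gene was called within the AL51 or the AL54 tumours either, where Il34 differed by -0.34 and -1.14 and Il1r1 by -0.49 and -0.91 log2 units.

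Among males 0 of 40 were called, against 0.349% of all genes (0.259% higher and 0.0906% lower), with 8 at an unadjusted p under 0.05. Il17rc came nearest. It measured 23.4, 26, 16.3 and 30.03 TPM in male luc and 33.0, 44.4, 32.7 and 46.6 TPM in male lucOS tumours, without overlap, and differed by 0.70 ± 0.17 log2 units (adjusted p = 0.083). Without male luc replicate 4 it was called (0.81, adjusted p = 0.022). In that fit 578 of all 15432 genes were called, against 54 of 15453 with every library. With only the male groups fitted, 0 of 14717 genes were called. Il1r2 (-0.95 ± 0.37), Il27ra (0.47 ± 0.19), Il10ra (0.82 ± 0.33) and Il7r (0.82 ± 0.34) followed Il17rc in the main fit, with adjusted p-values of 0.2, 0.205, 0.213 and 0.217. Il7r, the IL-7 receptor of T cells, measured 0.558, 0.445, 0.450 and 0.909 TPM in male luc and 0.660, 4.84, 0.934 and 2.20 TPM in male lucOS.

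The difference between both antigen comparisons was itself tested, and 0 of 40 genes and 0.0% of all genes were called, with 4 interleukin genes at an unadjusted p under 0.05. Il17rc had the smallest p (0.78 ± 0.22 log2 units, adjusted p = 0.332), followed by Il17rb (1.34 ± 0.60), Il34 (1.17 ± 0.54), Il18 (1.10 ± 0.52) and Il7r (0.84 ± 0.44), with adjusted p-values of 0.394, 0.411, 0.411 and 0.444. On simulated data with a change of 1 log2 unit this test recovered 44% of changed genes, the male antigen comparison 61% and the other antigen comparison 74%. The rate for interleukin genes of low level, such as Il2rb and Il7r, was not tested.

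Male tumours were then compared with tumours of the same construct and unstated sex. Since all males carry the AL75 code, sex and code cannot be told apart in this comparison. The deposited TPM of the males also summed to between -3.8 and 256.3 off 1000000 per library, and those of all other libraries to within 1.6e-05 of it. Why the sums differ is not stated. In luc tumours 4 of 40 genes were called higher and 0 lower, against 8.94% and 7.97% of all genes (16.9% in either direction). Libraries of the 2 groups did not overlap for 5 interleukin genes higher in males (Il11ra1, Il1b, Il2rb, Il2rg and Il6st) and 0 lower, against 6.68% and 6.7% of all genes. In lucOS tumours 14 of 40 were called higher and 0 lower, against 15.2% and 9.29% of all genes (24.4% in either direction). Groups did not overlap for 6 interleukin genes higher (Il11ra1, Il16, Il17rb, Il4i1, Il4ra and Il6st) and 0 lower, against 8.9% and 6.7% of all genes. The IL-6 family took 2 and 4 of these calls, and Il6st and Il11ra1 were called with both constructs.

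Il6st measured 48.3, 59.4, 61.5 and 50.7 TPM in male luc and 55.2, 52.8, 50.5 and 69.6 TPM in male lucOS tumours. The other luc tumours lay between 31.9 and 41.6 TPM (median 36.1) and the other lucOS tumours between 23.5 and 37.6 (median 33.0). All 8 males thus lay above all 12 other tumours. The difference was 0.58 ± 0.13 log2 units in luc (adjusted p = 0.0064) and 0.86 ± 0.13 in lucOS (adjusted p = 2.2e-04). The AL15 healthy livers, with 56.8 to 63.2 TPM, lay in the range of the males.

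Il11ra1 measured 28.2, 22.6, 51.3 and 19.4 TPM in male luc and 23.7, 30.6, 17.7 and 36.4 TPM in male lucOS tumours. The other tumours lay between 9.05 and 16.6 TPM in luc and between 8.82 and 14.7 in lucOS, again without overlap. The difference was 1.07 ± 0.24 log2 units with either construct (adjusted p = 0.0052 in luc and 0.0041 in lucOS). The near-identical Il11ra2 lay the other way without overlap, at 0.0118 to 0.0326 TPM in the 8 males and 0.0448 to 0.206 TPM in the other 12 tumours, and how the authors assigned reads shared by the copies is not stated. Ccl27b, which overlaps Il11ra2, was listed at 0 in all males. These calls of Il6st and Il11ra1 held under all 3 scalings and with each library left out in turn.

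The other calls in luc tumours were Il1b and Il1r2, both led by 1 library. Il1b measured 2.70, 10.9, 2.64 and 3.13 TPM in male luc tumours and 0.159 to 1.72 TPM in the others (1.67 ± 0.48 log2 units, adjusted p = 0.023). Il1r2 measured 0.961, 8.93, 2.12 and 1.30 TPM in the males and 0.0787 to 1.34 TPM in the others (1.04 ± 0.34, adjusted p = 0.044). Replicate 2 is the highest in both, and without it neither was called (Il1b 1.26, adjusted p = 0.104; Il1r2 0.53, adjusted p = 0.173). The call of Il1r2 was also lost without male luc replicate 3 or luc replicate 1, 2, 4 or 5, and with a pseudocount of 0.1, no filter, array weights or only the groups compared, while that of Il1b was lost with no other library left out. In that library 9 neutrophil and monocyte markers, S100a8 among them, summed to 1047 TPM, where the other 3 male luc libraries gave 19.4 to 31.9 TPM and the luc tumours of unstated sex 3.72 to 29.2 TPM. Kupffer cell markers (7 genes) also stood apart there, with 511.3 TPM against 23.6 to 33.1 TPM in the other 3. Their part in the values was not tested. Without it 2 genes were called in luc, and without luc replicate 6 there were 7. Il2rb had the next smallest p and did not pass (0.87 ± 0.31, adjusted p = 0.061).

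In lucOS tumours the calls included Il17rb and, apart from it, receptor chains of lymphoid and myeloid cells. Il17rb measured 6.02, 8.13, 2.88 and 13.3 TPM in males and 0.540 to 2.56 TPM in the others, without overlap (1.84 ± 0.42 log2 units, adjusted p = 0.0049). Il10ra, the IL-10 receptor chain of leukocytes, measured 5.29, 7.90, 3.77 and 8.56 TPM in males and 1.13 to 3.88 TPM in the others (1.09 ± 0.31, adjusted p = 0.016). Il2rb measured 1.54, 4.06, 1.39 and 6.79 TPM in males and 0.178 to 2.29 TPM in the others (1.06 ± 0.31, adjusted p = 0.020). Replicates 2 and 4 were the highest males for all 3 genes, while replicate 3 for Il10ra and replicates 1 and 3 for Il2rb lay within the range of the other tumours.

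Il4ra, the receptor chain for IL-4 and IL-13, measured 8.48, 11.9, 6.10 and 13 TPM in males and 2.84 to 5.70 TPM in the others, without overlap (1.06 ± 0.29, adjusted p = 0.015). Il21r, on B and T cells, measured 1.64, 2.99, 0.886 and 3.24 TPM in males and 0.266 to 1.20 TPM in the others (0.85 ± 0.23, adjusted p = 0.013). Il10rb, a chain shared by the IL-10 family, measured 19.4, 18.7, 13.8 and 25.8 TPM in males and 7.60 to 14.0 TPM in the others (0.78 ± 0.22, adjusted p = 0.017). For Il21r and Il10rb, male replicate 3 lay within the range of the other tumours. These 6 genes, with Il6st and Il11ra1, are the 8 that were called under all 3 scalings. Il18, Il6ra, Il16, Il4i1, Il17rc and Il27ra were called as deposited, with 1.11, 1.08, 0.84, 0.63, 0.52 and 0.52 log2 units, and were not called after quantile normalization.

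Markers of several other cell types moved with the lucOS calls. Summed T cell markers (10 genes in the table) lay between 15.2 and 42.8 TPM in male lucOS and between 6.07 and 20.2 TPM in the other lucOS tumours. Macrophage markers (11 genes) lay between 496.6 and 873.8 against 223.5 and 554.0 TPM, and B cell and plasma cell markers (10 genes) between 21.2 and 164.6 against 4.69 and 13.8 TPM. Lung epithelial markers (8 genes) lay between 24.0 and 61.5 against 6.32 and 13.2 TPM, with the surfactant gene Sftpc at 19.9 ± 8.06 TPM in male lucOS and at or below 0.323 TPM in every library without a male label. In male luc tumours the sums were 14.3 to 18.5 TPM for T cells, 233.3 to 840.0 for macrophages, 17.6 to 40.6 for B cells and 22 to 45.8 for lung epithelium. Hepatocyte markers (10 genes) lay between 990.1 and 14816 TPM in male lucOS and between 402.6 and 4649 TPM in the other lucOS tumours. In the same groups Kupffer markers (7 genes) lay between 51.4 and 176.2 against 13.6 and 83.2 TPM. Endothelial markers (10 genes) lay between 201.7 and 357.2 against 108.4 and 223.9 TPM. Cholangiocyte markers had a median difference of 0.10 log2 units, near the 0.13 of all genes. The part of these cells in the calls was not tested. Without male lucOS replicate 4 the count in lucOS was 3 and without replicate 2 it was 4, and without lucOS replicate 1, 2 or 4 it was 8, 9 and 9. Il6st, Il11ra1 and Il17rb were called in each of these.

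**Figure D4:**
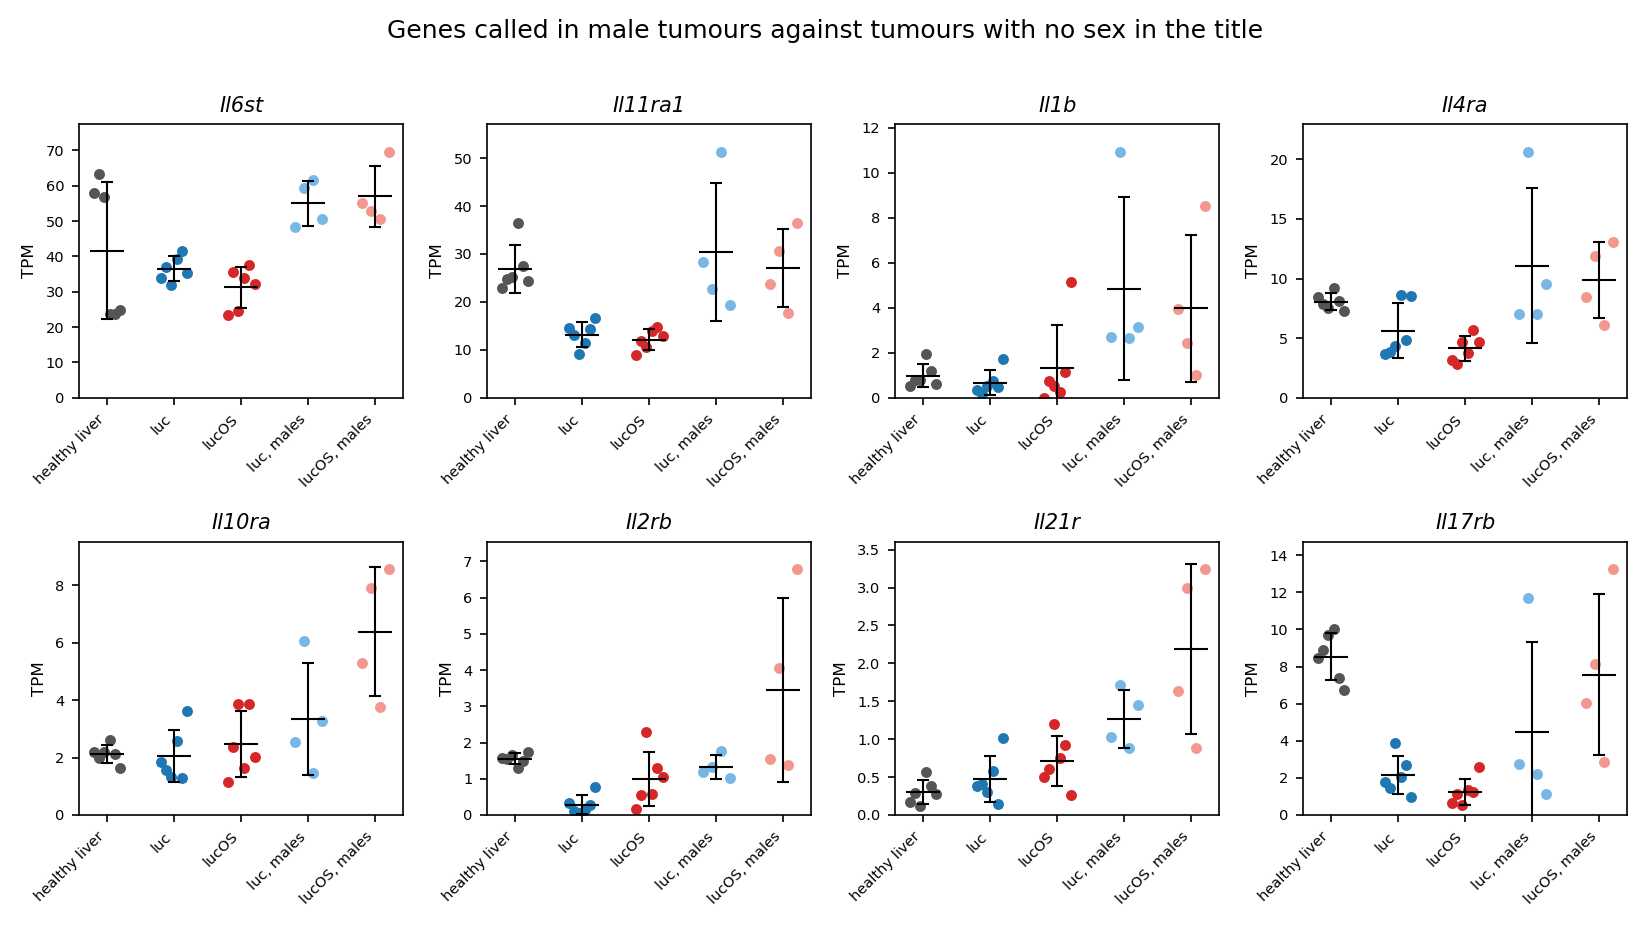
TPM of 8 genes called in male tumours against tumours of the same construct and unstated sex, 1 point per library, with group mean and SD as bars, some cut off at 0. Il6st and Il11ra1 lie higher in all 8 males than in the other 12 tumours, and 1 male luc library stands alone in Il1b.

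Genes that work with the interleukins were counted in males too, where 8.94% of all genes were called higher in luc and 15.2% in lucOS. In luc, 3 of 17 partners, 4 of 23 JAK, STAT and SOCS genes and 4 of 21 IL-1 and IL-17 signalling genes were called higher and 0 lower. In lucOS the JAK, STAT and SOCS genes had 7 of 23 higher and 0 lower as deposited, 5 and 0 after median ratio scaling and 2 and 0 after quantile normalization. The IL-1 and IL-17 signalling genes had 7 of 21 higher and 0 lower, then 3 and 1, then 1 and 1, and the partners 5 of 17 and 0, then 3 and 1, then 2 and 1. Of all 15453 genes in lucOS, median ratio scaling called 1450 higher and 2117 lower. Quantile normalization called 1323 of them higher and 2191 lower. Socs3, the gp130-induced suppressor, averaged 26.6 ± 11.1 TPM in male luc and 8.55 ± 3.20 in the other luc tumours (1.52 log2 units, adjusted p = 0.0024). Osm, the ligand oncostatin M, averaged 1.24 ± 0.26 against 0.252 ± 0.174 TPM (0.84, adjusted p = 0.0040). In lucOS, Csf1r, the receptor of CSF1 and IL-34 on macrophages, averaged 42 ± 14.8 TPM in males and 13.5 ± 5.48 in the others (1.58, adjusted p = 0.016), and Casp1, the protease that activates IL-1 and IL-18, 5.46 ± 2.50 against 1.75 ± 0.85 TPM (1.22, adjusted p = 0.012). Acute phase genes were called higher in 0 of 20 cases in luc and 2 of 20 in lucOS, a share below that of all genes, and in 0 after either rescaling. Few calls did not mean a small difference. Their median difference was 0.90 log2 units in luc and 1.92 in lucOS, against 0.046 and 0.13 for all genes. Hepatocyte markers had medians of 0.66 and 2.00 log2 units in the same comparisons, and their part in the acute phase values was not tested.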

How the data were processed

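The authors deposited 1 table of TPM for the 26 bulk libraries. TopHat2, featureCounts, DESeq2 and mm10 are named per the submitters' processing notes, and the sources used here do not give their roles, versions, strand setting or annotation. TPM keeps no read depth, so no counting interval is given, and libraries listed 16897 to 19145 genes above 0. Of 24063 rows, 27 with names turned into dates and 2 with a repeated name were left out. The other 30 samples of the series were not used.

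Values were tested as log2(TPM + 1) with limma 3.58.1 (trend and robust) in R 4.3.3, on genes that reached 1 TPM in 4 or more of the libraries fitted, with Benjamini-Hochberg adjustment over all genes at 0.05. Fold changes on this scale understate changes of low genes. Tumours against healthy liver was the equal-weight mean of 4 tumour groups minus healthy liver over 26 libraries, and the other comparisons used the 20 tumours. Alternatives were pseudocounts of 0.1 and 0.5, other filters, median ratio scaling, quantile normalization, array weights, subsets of samples and each library left out. Markers and other gene lists were summed or counted. The interleukin genes and the lists were chosen with earlier results of these data known. Up to 10 called genes with the largest rise and fall per comparison, the 5 smallest p where under 5 were called, and a fixed set of 26 genes were described. Tables were made with Python 3.11.15, pandas 2.3.3, numpy 2.4.6 and scipy 1.17.1. Promoter windows came from RefSeq on GRCm38.p6. The fit was tested on simulated data.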

Additional observations from a re-analysis of the deposited data

Results flagged for a closer look

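The highest or lowest library was checked in 198 groups of 4 to 6 libraries over 40 interleukin genes (Dixon's test at 95%, on TPM), and 23 stood apart. The nominal rate of about 1 in 20 groups holds for normally distributed values and independent groups. Here the same libraries recur across genes, so the count is not read as an excess over that rate.

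Male luc replicate 2 was the high library for 9 genes: Il10rb at 22.1 TPM, Il15ra at 15.7, Il17rb at 11.7, Il1a at 5.27, Il1b at 10.9, Il1r2 at 8.93, Il22ra1 at 4.66, Il27ra at 0.978 and Il2rg at 11.9 TPM. The next highest male luc library held 11.8, 8.29, 2.77, 1.48, 3.13, 2.12, 0.789, 0.539 and 4.40 TPM for the same genes. Replicate 3 of that group was high for Il25 at 10.9 TPM, and replicate 1 low for Il3ra at 25.9 TPM.

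In male lucOS tumours, replicate 4 was high for Il3ra at 30.5 TPM and replicate 3 low for Il1rap at 3.34 TPM. In lucOS tumours of unstated sex, replicate 6 was high for Il1b at 5.16 and Il33 at 3.03 TPM, replicate 3 for Il17rd at 3.08 TPM, and replicate 1 was high for Il34 at 9.30 and low for Il4i1 at 1.06 TPM. In luc tumours, replicate 3 was high for Il15ra at 34.8 TPM and replicate 6 for Il1rl2 at 2.72 TPM.

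In healthy liver, replicate 4, of the PM5 code, was high for Il11ra1 at 36.5 and Il3ra at 4.76 TPM, and replicate 2, of the AL15 code, for Il1rl2 at 0.374 TPM.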

How the results depend on the processing

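No paired analysis was possible because the titles carry individual codes but no label that links libraries of different groups. For tumours against healthy liver, the count higher moved from 22 to 34 without a filter, 9 with median ratio scaling, 8 with quantile normalization, 14 with only tumours of unstated sex and 14 with only AL15 livers; the count lower moved from 8 to 22, 28 and, with array weights, 13. Differences that turned sign were, after median ratio scaling and quantile normalization, Il10rb -0.38 and -0.38, Il12rb2 -0.37 and -0.82, Il16 -0.31 and -0.73, Il17rc -1.0 and -0.63, Il1rn -0.17 and -0.52, Il2rg -0.55 and -0.80, Il33 -0.17 and -0.60, Il34 -0.42 and -0.70, Il18bp -0.88 and -0.73, Il15 -0.60 and -0.93, Il10ra -0.56 and -0.90, Il1b -0.16 and -0.61 and Il6st -1.08 and -0.53. Il13ra1 turned to -0.030 after median ratio scaling, and Il21r to -0.23, Il23a to -0.26, Il4i1 to -0.27 and Il7r to -0.38 after quantile normalization. Il6st turned to -0.45 with only AL15 livers and Il11ra1 to 0.037 with only males. In luc tumours the male count of 4 became 7 without a filter, 7 without microRNA gene rows and 9 with array weights; in lucOS tumours 14 became 8 with quantile normalization. Without a filter 2 of the 7 in luc and 2 of the 18 in lucOS were lower in males, Il2 and Il11ra2 in both, where 0 were lower with it. The cause was not tested. With each library left out, counts ranged from 27 to 32 (19 to 24 higher, 8 lower) for tumours against healthy liver, 2 to 7 for males in luc, 3 to 17 for males in lucOS and 0 to 1 for lucOS against luc in males. They stayed at 0 for lucOS against luc at unstated sex and for the interaction. Il17rc lost its call without healthy replicate 1, Il1rn without healthy replicate 5 or 6, and Il2rg in 17 of 26 cases. Other settings kept the total of each comparison within 1.5 times. TPM keeps no depth, so levels near 0 carry an unknown counting error.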
